A study of Fundulus heteroclitus with 5 samples.

Results

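The study listed part of the 384 cDNA features on its array of the killifish Fundulus heteroclitus for analysis, and 84 of the listed features (39.6%) lost share of the total fluorescence at the 50× RNA concentration relative to 10× by more than a set limit. They were chosen from the deposited table of sum-normalized values as the features whose value at 10× was more than 1.5 times the value at 50×. The other 128 listed features, and 172 printed features outside the list, were used only for comparison. The fluorescence was given for 5 samples, each with values in both dyes. The concentration of labeled RNA was 0.1×, 1×, 5×, 10× or 50× the standard amount, with 1 sample, called an array here, at each. All arrays received total RNA from the heart of laboratory-acclimated fish, amplified with T7 RNA polymerase as amino allyl RNA and coupled to Cy3 or Cy5, with less Cy5 than Cy3 at each concentration. The number of fish behind this RNA is not given in the sources used here, and that both dyes of an array carried the same nominal concentration was read from the column names and sample titles. The study's methods give a loop design for all its experiments, in which the Cy5 and Cy3 labels of a sample go to different slides, so whether the dyes of 1 concentration shared a slide is not settled. Each feature was printed as 4 spots, and there was no replicate array, so each SD given here compares the 4 printed copies within an array and covers technical error only.

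A spotted cDNA captures labeled RNA of matching sequence, and its fluorescence tracks the amount of RNA as long as the printed DNA is in excess and the scanner is below its ceiling. When the printed DNA is filled, further RNA adds no fluorescence, which is called biological saturation. Sum normalization divides each feature by the total of its array, so a feature loses share whenever its own fluorescence rises by a smaller factor than the total. The array was built from cDNAs for cellular metabolism, with oxidative phosphorylation, fatty acid metabolism and transport, glycolysis and the citrate cycle among the larger groups, all of them pathways on which the beating heart draws for ATP. The files number the features and do not pair the numbers with genes, and 0 of 384 numbers matched a RefSeq gene record of this species. The 84 features could therefore be neither sorted by pathway nor checked against heart markers, and they are described by level, dye and place on the slide.

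In the deposited table the ratio of the 10× value to the 50× value, which defined the set, had a median of 2.47 and a highest value of 5.10 among the 84 features, against a median of 0.881 in the other 128. A ratio above 1 was found in 131 listed features, so those that lost share by less are counted among the others here. It exceeded 2 in 57 of the 84 features, 3 in 30 and 4 in 10. The features just inside the limit had ratios of 1.504, 1.518 and 1.519, and those just outside had 1.493, 1.479 and 1.462, so no gap separated the set from the rest. The median sum-normalized value of the set was 623.5 at 0.1×, 819 at 1×, 998 at 5×, 937 at 10× and 364.5 at 50×, and it was thus lowest at 50× and highest at 5×.

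The selection used both dyes together, and the dyes taken singly did not give the same set. With Cy5 alone 77 of the 84 features passed the limit, together with 16 other listed features, and with Cy3 alone 70 passed, together with 9 others. Both dyes passed it in 63 of the 84, which was 29.7% of all listed features. The share at 50× was below that at 10× in every one of the 8 values, 1 for each dye and spot set, in 72 of the 84 features and in no other listed feature (34% of the list), and the limit was passed in all 8 values in 47 (22.2% of the list). Across the 84 features the ratios from Cy5 and from Cy3 had a Spearman rho of 0.69. This is across features that share the same 2 arrays and is given as a description.

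Although they lost share, all 84 features were brightest at 50× in both dyes. Their Cy5 fluorescence had a median of 1411 ± 112 (SD, n = 4 spot sets) at 0.1×, 1296 ± 29.6 at 1×, 1439 ± 39.0 at 5×, 574 ± 50.4 at 10× and 3414 ± 331 at 50×. The other listed features had Cy5 medians of 1600, 1417, 1467, 594 and 13407 in the same order. For Cy5 the 84 features were thus close to the others up to 10× and far below them at 50×. Their median was 0.255 ± 0.012 of that of the others at 50×, against 0.882 ± 0.016 to 0.981 ± 0.014 on the 4 other arrays. The rule selected low values at 50× relative to 10×, so a gap at 50× follows from it in part.

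In Cy3 the median of the 84 features was 156 ± 8.80 at 0.1×, 134 ± 2.58 at 1×, 170 ± 4.50 at 5×, 311 ± 13.6 at 10× and 1863 ± 200.1 at 50×. The other listed features had Cy3 medians of 236, 182, 193, 417 and 8063. The 84 features were dimmer than the others in Cy3 on every array, and again the distance was widest at 50×, at 0.231 ± 0.025 of the other median, against 0.660 ± 0.028 at 0.1×, 0.738 ± 0.054 at 1×, 0.881 ± 0.061 at 5× and 0.747 ± 0.036 at 10×. As a mean of both dyes, 3 of the 84 features lay above the median of the others at 50×, and 10 to 22 did so on the 4 other arrays. The rule used the 50× values, so the wider distance there follows from it in part.

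**Figure D1:**
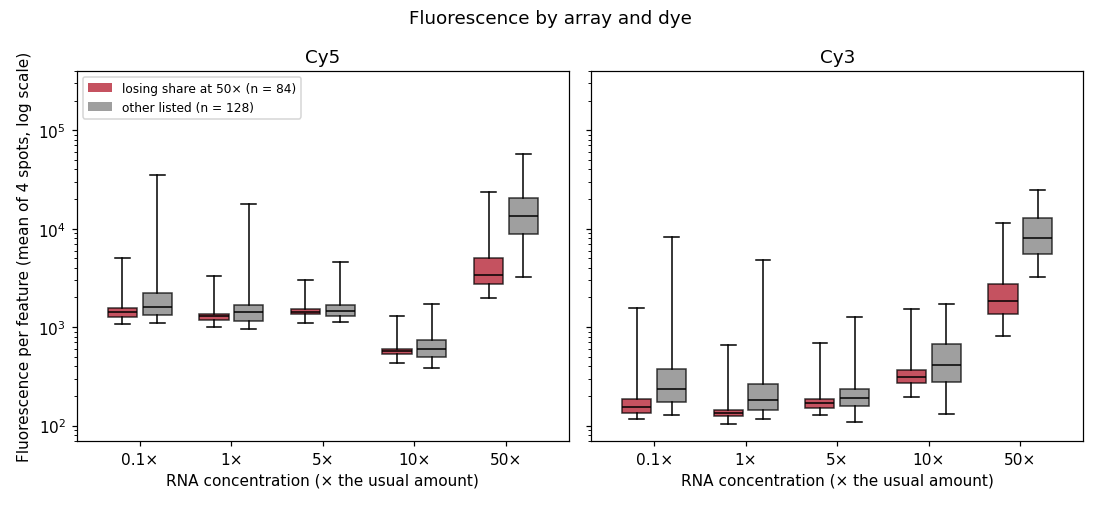
Fluorescence of the 84 features that lost share at 50× (red) and the 128 other listed features (grey) on the 5 arrays, for Cy5 and Cy3, on a log axis, with boxes for the quartiles, lines for the medians and whiskers for the lowest and highest feature. Both sets are highest at 50×, where the red medians are 3414 in Cy5 and 1863 in Cy3, against 13407 and 8063 in grey.

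The path between 0.1× and 10× was not a steady rise in either dye. Cy5 was lowest at 10× in all 84 features and in all of the other 128. All 4 Cy5 spots at 10× lay below all 4 spots at 5× in 82 of the 84 (97.6% of all listed features did so). Cy3 was lowest at 1× in 62 of the 84 features, at 0.1× in 18 and at 5× in 4, against 59, 13 and 54 of the other 128, in 2 of which it was lowest at 10×. All 4 Cy3 spots at 10× lay above all 4 spots at 5× in 63 features, where 74.5% of the listed features did so. Cy3 rose at every step in 16 of the 84 features and in 10 of the other 128, whereas Cy5 rose at every step in no listed feature. With 5× set against 1×, all 4 spots were brighter in 26 of the 84 features in Cy5 and in 15 in Cy3 (20.8% and 10.4% of the listed features), and all 4 were dimmer in 1 and in 0 (1.42% and 3.77%). With 1× set against 0.1×, all 4 spots were dimmer in 11 features in Cy5 and in 14 in Cy3 (15.1% and 21.2% of the list), and brighter in 0 and in 1 (0% and 0.472%). With 5× set against 0.1×, all 4 were brighter in 10 features in Cy5 and in 9 in Cy3 (5.19% and 6.6%), and dimmer in 6 and in 3 (15.1% and 17.9%). In each comparison among the 0.1×, 1× and 5× arrays, taken singly and in each dye, most of the 84 features thus had overlapping spots. From 0.1× to 5×, a 50-fold change in RNA, the fluorescence of the 84 features changed by a median factor of 1.03 ± 0.097 in Cy5 and 1.09 ± 0.083 in Cy3, so the change was within 1 SD over spot sets in Cy5 and barely above it in Cy3.

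From 10× to 50×, a 5-fold change in RNA, all 4 spots were brighter at 50× than at 10× in each of the 84 features and in both dyes, which held for 100% of the listed features. Cy5 rose by a median of 6.50 ± 0.711 times and Cy3 by 6.09 ± 0.897 times in the 84 features, against 21.6 ± 2.70 and 16.9 ± 3.87 times in the others. The smallest rise among the 84 was 3.52-fold in Cy5 and 2.82-fold in Cy3, and the largest was 17.9-fold and 12.9-fold. A rise of no more than the 5-fold change in RNA was seen in 20 of the 84 features in Cy5 and in 25 in Cy3, and in none of the other 128, which made 9.43% and 11.8% of the listed features. It was more frequent outside the list, in 121 of the 172 unlisted features in Cy5 and in 95 in Cy3. The median rise of the unlisted features was 3.66-fold in Cy5 and 4.56-fold in Cy3. The study's filter on mean signal over all arrays includes 50×, so a larger rise in listed features follows from it in part. The 10× and 50× arrays chose the set, so the values describe it and were not tested. The study's methods give no scanner setting for each array, so raw fluorescence may not be on the same scale between arrays. From 5× to 10×, a 2-fold change in RNA, Cy5 fell in all 84 features and in all of the other 128. The RNA folds given here are thus a reference only, and whether a feature fell short of its RNA was not tested.

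These folds depended on whether a background was taken off. The files hold no local background, and with the lowest feature of each array and dye subtracted the median rise from 10× to 50× in the 84 features was 18.4-fold in Cy5 and 8.04-fold in Cy3, against 57.2-fold and 23.0-fold in the others. After this subtraction 0 of the 84 features in Cy5 and 15 in Cy3 rose by 5-fold or less, and none of the others did. With the 5th percentile subtracted in its place, these were 2 of the 84 in Cy5 and 19 in Cy3. The quotient was also 5 or less in 6 others in Cy5 and 4 in Cy3. That count did not leave out negative quotients, which arise where the 10× level is below the 5th percentile, so it does not show weak rises. Before subtraction the smallest rise among the others was 7.11-fold in Cy5 and 7.21-fold in Cy3. No spot of the 84 features reached the ceiling of the scanner, and the brightest read 31597.

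**Figure D2:**
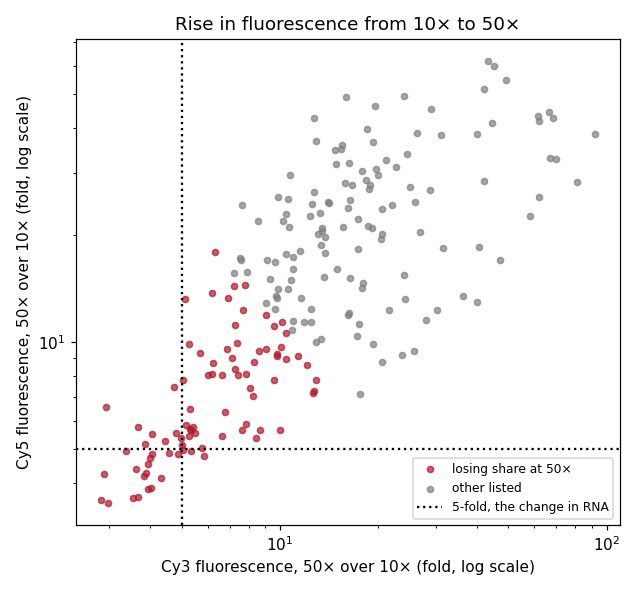
Rise in fluorescence from 10× to 50× for each listed feature, in Cy5 (y axis) and Cy3 (x axis), both as folds on log axes, with dotted lines at the 5-fold change in RNA. The 84 features that lost share (red) have medians of 6.50-fold in Cy5 and 6.09-fold in Cy3. With no background subtracted, only they among the listed features rise by 5-fold or less, and unlisted features are not shown. The dotted lines are a reference only, as the study's methods give no scanner setting for each array.

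As a share of the fluorescence of all listed features, with the dyes averaged, the 84 features held 23.5 ± 1.45% at 0.1×, 29.6 ± 1.30% at 1×, 35.2 ± 1.10% at 5×, 34.4 ± 0.819% at 10× and 15.1 ± 1.36% at 50× (SD, n = 4 spot sets). Their share was below their number, 39.6% of the features, on all 5 arrays. It was higher at 5× than at 0.1× by far more than the spread among spot sets. From 5× to 10× it fell by less than the SD at 5× and by slightly more than the SD at 10×. At 50×, an array that chose the set, it was below the share at 0.1×. With the 5th percentile subtracted these shares were 12.5% at 50× and 12.6% at 0.1×, and as a share of all 384 features 9.95% and 10.5%. In Cy5 the sums were 26.8, 33.6, 37.6, 37.5 and 15.98% from 0.1× to 50×. In Cy3 they were 20.2, 25.7, 32.9, 31.2 and 14.1%, so both dyes followed a similar course. In Cy3 the fall from 5× to 10× exceeded the SDs of both arrays (1.40 and 0.578).

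**Figure D3:**
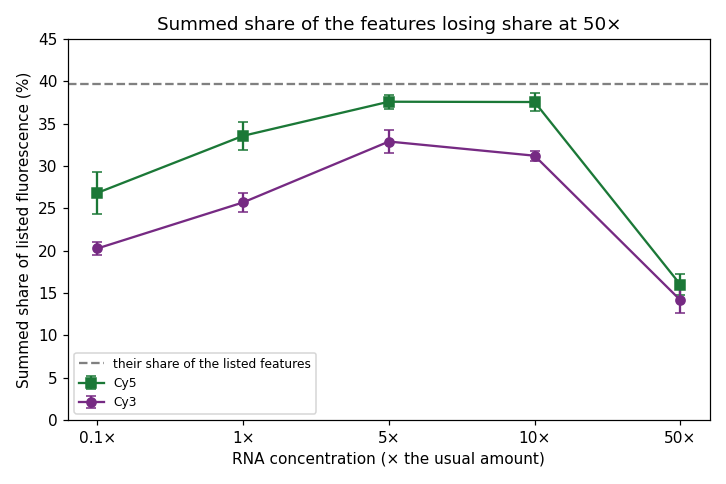
Summed share of the 84 features in the fluorescence of all listed features on each array, for Cy5 (squares) and Cy3 (circles), with SDs over 4 spot sets as bars and 39.6%, their share of the listed features, as a dashed line. Both dyes are highest at 5× and 10× and lowest at 50×, at 15.98% in Cy5 and 14.1% in Cy3.

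Single features mostly followed the sum. The median share of 1 of the 84 features was 0.249% at 0.1×, 0.327% at 1×, 0.399% at 5×, 0.375% at 10× and 0.146% at 50×, where an equal share would be 0.472%. The shares spanned 0.322 to 1.20% at 5×, and 0.0694 to 0.795% at 50×, a narrower span in percentage points and a wider one as the highest over the lowest. Ranked within the list, the median feature of the set stood at the 33.3rd percentile at 0.1×, the 36.3rd at 1×, the 41.7th at 5× and 10× and the 20.05th at 50×. At 50× 53 of the 84 were in the lowest 25% of the list, whereas at 5× 20 were in the lowest 25% and 9 in the highest. Low ranks at 50× follow in part from the rule, which used that array.

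**Figure D4:**
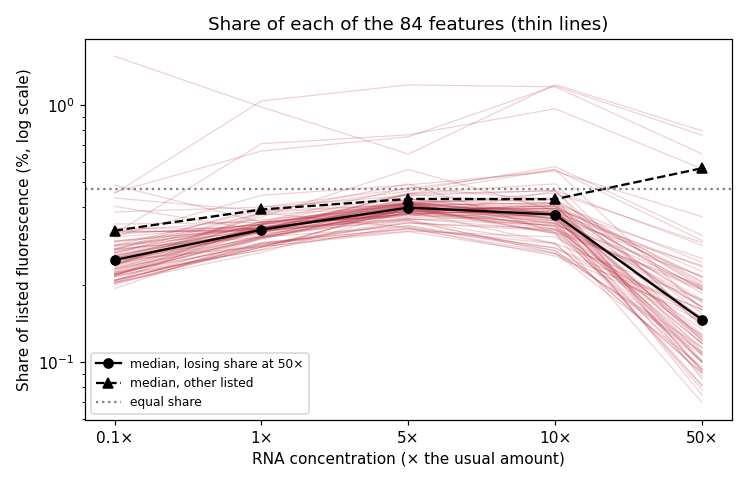
Share of the listed fluorescence of each of the 84 features (thin red lines), with their median (solid black) and the median of the other 128 listed features (dashed black), mean of both dyes, on a log axis. The median of the 84 is 0.249% at 0.1×, 0.399% at 5× and 0.146% at 50×, and 2 lines at 0.1×, 9 at 5× and 4 at 50× lie above the equal share of 0.472%.

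The ratio that chose the set did not use the 3 arrays from 0.1× to 5×, and over them its share moved the other way. These arrays did enter the study's filter, which every listed feature passed on its mean signal over all arrays and dyes. The share was higher at 5× than at 0.1× in 81 of the 84 features, with a median ratio of 1.61 ± 0.078, against 98 of the other 128 with a median of 1.36 ± 0.112 (84.4% of the listed features). With limma (Benjamini-Hochberg adjustment over all listed features, 3 arrays) the slope of log2 share on log2 concentration was called at an adjusted p below 0.05. It was called above 0 in 64 of the 84 features and below 0 in 1, where 55.7% of the listed features were called rising and 7.08% falling. By sign alone the slope was above 0 in 81 of the 84 and below 0 in 3, against 98 and 30 of the other 128. The median slope was 0.12 in the 84 features and 0.10 over all listed features. The fit had 1 residual degree of freedom per feature, and all features share the arrays.

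This rise rested on the scaling. When each array was scaled to the median of the listed features in place of their sum, 2 of the 84 features rose and 4 fell by the same test, beside 2.36% and 15.6% of the listed features, and the median ratio of 5× to 0.1× was 1.09. The 10 brightest listed features held 33.2% of the summed fluorescence at 0.1×, 20.7% at 1× and 13.2% at 5×, and 1 of the 10 was among the 84 on each of these arrays. The part of this in the result was not tested. Without the dimmest 25% of the list, which removed 22 of the 84 features, 36 of the remaining 62 were called rising. The share of the whole kept list called rising was not counted, so this count cannot be compared with it.

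Features 196 and 151 had the highest ratios of 10× to 50×, 5.10 and 5.04 in the deposited table. The 4 Cy5 spots of feature 196 read 2208, 2913, 2358 and 1988 at 50×, against 852, 544, 552 and 701 at 10×. Its 4 Cy3 spots read 1144, 1219, 1047 and 864 at 50×, against 463, 353, 317 and 380 at 10×. The spots of the 2 arrays did not overlap in either dye. With no background subtracted, the mean rose by less than the 5-fold change in RNA in both dyes. With the lowest feature subtracted, this no longer held in Cy5. Its share of the Cy5 fluorescence was 0.0961% at 50×, against 0.494% at 10×. At 0.1×, 1× and 5× its Cy5 fluorescence was 1526 ± 106 (SD, n = 4 spots), 1376 ± 110 and 1557 ± 283, and the spots of these 3 arrays overlapped.

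Feature 151 had Cy5 spots of 1901, 1988, 2390 and 1854 at 50×, against 641, 496, 561 and 613 at 10×. Its Cy3 spots were 910, 950, 942 and 929 at 50×, against 227, 382, 292 and 357 at 10×. Its Cy3 fluorescence at 0.1×, 1× and 5× was 153 ± 20.5, 121 ± 12.03 and 148 ± 61.4 (SD, n = 4 spots), and all 4 spots at 1× lay below all 4 at 0.1×, while the spots at 5× overlapped those of both. Its log2 slope of share over 0.1× to 5× was 0.10 and that of feature 196 was 0.11, beside a median of 0.12 in the set. The slopes of the set ranged from -0.22 to 0.26.

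Features 275 and 61 had the steepest rise in share over 0.1× to 5× among the 84, with log2 slopes of 0.26 ± 0.05 and 0.23 ± 0.05 (SE), and adjusted p of 0.0279 and 0.0334 in limma. Their ratios of 10× to 50× were 1.83 and 1.72, near the limit. The Cy3 fluorescence of feature 275 was 389 ± 89.4 at 0.1×, 662 ± 261 at 1×, 697 ± 323 at 5×, 1513 ± 409 at 10× and 9363 ± 1898 at 50× (SD, n = 4 spots). The spots of each array from 0.1× to 10× overlapped those of the next, and all 4 spots at 50× stood above them. Feature 61 had Cy3 fluorescence of 177 ± 31.7, 314 ± 99.7, 425 ± 90.7, 1166 ± 314 and 8087 ± 1244 from 0.1× to 50×, and was 1 of the 16 features whose Cy3 rose at every step.

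The feature that was brightest among the 84 at 50×, as a mean of both dyes, was an exception to the course of the set. It read 23448 ± 3771 in Cy5 and 9042 ± 1060 in Cy3 at 50× (SD, n = 4 spots) and passed the limit with a ratio of 1.518. Its Cy5 fluorescence was already 5058 ± 1443 at 0.1×, against 1877 ± 287 at 5×, and it was the feature whose share fell with concentration over 0.1× to 5× in limma, with a slope of -0.22 ± 0.02 (SE, adjusted p = 0.0270). It was described after its values were seen. The dimmest of the 84 at 50× read 1997 ± 141 in Cy5 and 818 ± 144 in Cy3, with a ratio of 4.57.

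Place on the slide, which the rule did not use, differed widely within the list. The spots were laid out in 48 columns and 32 rows, and the 4 spots of a feature stood in the same column, in 4 blocks of 8 rows, so the spread over spots does not sample the columns. In columns 1 to 8, 32 of 39 listed features (82.1%) were among the 84, and in columns 9 to 16 these were 19 of 45 (42.2%). In columns 17 to 24 there were 10 of 42 (23.8%) and in columns 25 to 32 there were 17 of 29 (58.6%). In columns 33 to 48, 6 of 57 listed features (10.5%) were among them. The ratio of 10× to 50× over the listed features had a median of 2.98 in columns 1 to 8, 1.82 in columns 25 to 32 and 0.641 in columns 41 to 48. Counts by column were not tested.

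**Figure D5:**
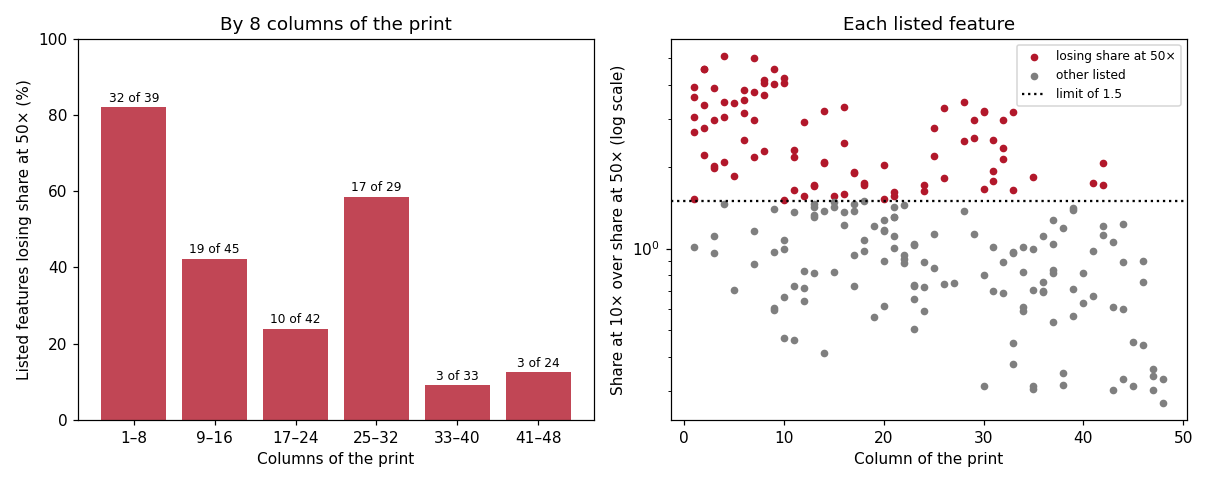
Left, percent of the listed features in each band of 8 print columns that lost share at 50×, with the counts above the bars. Right, share at 10× over share at 50× in the deposited table (log axis) against the print column for the 84 features (red) and the other 128 (grey), with the limit of 1.5 dotted, where 32 of 39 features lie above it in columns 1 to 8 and 6 of 57 in columns 33 to 48.

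The columns also differed in features that were not listed. In columns 1 to 8 the median unlisted feature read 1890 at 50× and 576 at 10× in Cy5, and 919 at 50× and 308 at 10× in Cy3. In columns 41 to 48 it read 1894 at 50× and 414 at 10× in Cy5, and 1453 at 50× and 164 at 10× in Cy3. The unlisted features were thus brighter on the left than on the right at 10× in both dyes, and not at 50×. In both dyes they were also brighter on the left on the 3 weaker arrays. The Cy5 medians in columns 1 to 8 were 1502 at 0.1×, 1334 at 1× and 1470 at 5×, against 1154, 1034 and 1202 in columns 41 to 48. The Cy3 medians were 163, 130 and 175, against 138, 117 and 125. By band of 8 columns from left to right, the median rise of the unlisted features from 10× to 50× in Cy5 was 3.36, 4.14, 5.83, 3.01, 3.25 and 4.47-fold. In Cy3 it was 2.87, 4.20, 6.24, 3.35, 5.30 and 8.53-fold. In the same order, 82.1, 42.2, 23.8, 58.6, 9.09 and 12.5% of the listed features were among the 84. The part of this in the membership was not tested. Within columns 1 to 8 the 84-feature set rose from 10× to 50× by medians of 5.51 in Cy5 and 4.58 in Cy3. The 7 other listed features there rose by 24.4 and 10.4. Within columns 41 to 48 its 3 features rose by 7.18 and 12.6, against 22.6 and 42.2 in the others. The rule used these same 10× and 50× values, so a smaller rise of the set within a band follows from it and was not tested.

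Up to 10× the 84 features were barely above the unlisted features of the same columns. Divided by the median unlisted feature of the same 8 columns, their Cy5 fluorescence had a median of 1.03 at 0.1×, 1.02 at 1×, 1.01 at 5× and 1.04 at 10×, and 1.77 at 50×. Their Cy3 fluorescence, from 0.1× to 50×, had medians of 1.07, 1.05, 1.01, 1.13 and 1.85. At 5× 45 of the 84 features were above that median in each dye, and at 50× 83 were above it in Cy5 and 79 in Cy3. The other listed features stood further above it, at 1.09 in Cy5 and 1.27 in Cy3 at 5×, and at 6.43 and 6.63 at 50×. The study kept features by their mean signal over all arrays and dyes, and every listed feature was brightest at 50×. Standing above unlisted features at 50× thus follows in part from this filter and was not tested. The negative controls are not marked in the files, so how far the set lay above them could not be measured.

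As a description of the ratio that chose the set, across the 84 features its Spearman rho with fluorescence was -0.80 in Cy5 and -0.92 in Cy3 at 50×, and 0.05 in Cy5 and -0.14 in Cy3 at 10×. Over the whole list the values were close to these, at -0.82 and -0.90 at 50× and 0.04 and -0.16 at 10×. On the arrays the rule did not use, 0.1×, 1× and 5×, rho among the 84 was 0.06, 0.10 and 0.12 in Cy5. In Cy3 it was 0.12, -0.20 and -0.12. Over the whole list, rho on these arrays was -0.30, -0.15 and 0.008 in Cy5, and -0.56, -0.58 and -0.20 in Cy3. The shares of the features at 0.1× and 1× had a rho of 0.70 and those at 5× and 10× 0.66, whereas those at 0.1× and 50× had 0.15 among the 84 and 0.69 over the whole list. These are descriptions over features that share the 5 arrays, and the values at 10× and 50× enter the ratio itself.

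The spread among spots differed between the 84 features and the others, but not in 1 direction. The median CV of the 4 spots at 50× was 19.2% in Cy5 and 12.8% in Cy3 for the 84 features, against 44.2% and 17.4% for the other listed features. In Cy5 it was also lower for the 84 features at 0.1× (10.3%, against 14.5%), 1× (7.78%, against 14.8%) and 10× (13.5%, against 16.4%), and close to the others at 5× (8.69%, against 8.86%). In Cy3 it was lower for the 84 features at 1× (13.8%, against 18.5%), higher at 0.1× (16.8%, against 16.1%) and 5× (20.1%, against 19.02%), and about equal at 10×, at 17.7% in both.

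The balance of the dyes was tested on the 3 arrays that the ratio did not use, taking both dyes of a concentration as 1 slide. If they came from different slides, dye and slide cannot be told apart in these values. After loess within each array, limma called a Cy5 to Cy3 difference in 0 of the 84 features, and their smallest adjusted p was 0.0573. At an unadjusted p below 0.05, Cy5 was higher in 11 of the 84 and Cy3 in 1, against 14 and 35 of the other 128. Over the list 0% were called with Cy5 higher and 1.42% with Cy3 higher. The log2 ratio of Cy5 to Cy3, relative to the loess curve of all listed features, had a median of 0.06 in the 84 features and was above 0 in 57 of them, against a median of -0.08 and 46 of 128 in the others.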

How the data were processed

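The authors scanned the slides, used Imagene for quantification, and deposited 1 intensity per spot and dye, with no background column and no normalization between arrays. The 5 copies of the spot table were identical. They also deposited a table of sum-normalized intensity for 212 features, by the methods those above negative controls and below saturation. Recomputed from the spots as the mean of the 2 dyes' shares of the listed total, 1057 of 1060 values came within 2 units of it. No column was without a sample.

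Fluorescence of a feature is the mean of its 4 spots in 1 dye. Tests used limma 3.58.1 in R 4.3.3 (lmFit, eBayes, Benjamini-Hochberg 0.05 over 212 features) on the 0.1×, 1× and 5× arrays, with loess (span 0.3, 4 iterations) for the dye ratio. The steps were tested on simulated data. Other values came from scipy 1.17.1, pandas 2.3.3 and numpy 2.4.6 under Python 3.11.15. The members and tests were chosen with earlier results of these data known. As features have no gene names, the features named by number were those with the 2 highest ratios of 10× to 50× and the 2 steepest rises in share over 0.1× to 5×. Alternatives were each dye, the median of the spots, other scalings, subtraction of a background, other limits, a filter on dim features, all 384 features, all 5 arrays and arrays left out. The number of arrays limits the precision, and no concentration had a replicate array. The p-values rest on the scatter of 3 arrays about the fitted line or, for the dye ratio, about its mean. This scatter mixes technical error with differences between concentrations.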

Additional observations from a re-analysis of the deposited data

Results flagged for a closer look

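The dyes of the 84 features moved in opposite directions from 5× to 10×. Cy5 fluorescence at 10× was a median of 0.398 times that at 5× and was lower in all 84 features, whereas Cy3 fluorescence was a median of 1.87 times that at 5× and was higher in all 84. The difference between the dyes was not tested, as there was 1 array at each concentration, and if the dyes of a concentration came from different slides, dye and slide cannot be told apart. The other 128 listed features had medians of 0.399 in Cy5 and 2.08 in Cy3, with Cy5 lower in all 128 and Cy3 higher in 126. Among the 172 unlisted features Cy5 was lower in 171 and Cy3 higher in 168, so the movement was not particular to the 84.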

How the results depend on the processing

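With 1 array per concentration, no level, share or fold here has an error among arrays, and up to 10× the 84 features had medians of 1.01 to 1.13 times the unlisted features of their columns. No paired analysis was possible because each concentration had 1 array, and the slope test could not be fitted with 1 of its 3 arrays left out. The cause of the movements below was not tested. The number of features past the limit stayed within 1.5 times 84, between 57 with the higher limit of 2 and 107 with the lower limit tried, and 64 to 80 of the 84 were kept under the other alternatives. An alternative run for a result and not named for it stayed within 1 SD over spot sets, or within 1.5 times for a count.

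The median rise from 10× to 50×, 6.58-fold for both dyes, was 13.2-fold both with the lowest feature and with the 5th percentile subtracted. The summed share from 0.1× to 10×, 23.5, 29.6, 35.2 and 34.4%, was 20.2, 25.7, 32.9 and 31.2% with Cy3 only, 26.8, 33.6, 37.6 and 37.5% with Cy5 only, and 15.2, 20.4, 30.2 and 31.4% with the lowest feature subtracted. With the 5th percentile subtracted it was 12.6, 18.2, 28.1, 30.4 and 12.5% from 0.1× to 50×, and as a share of all 384 features 10.5, 14.2, 18.4, 19.1 and 9.95%. The median over that of the other listed features, 0.862, 0.881, 0.964, 0.880 and 0.249 for both dyes from 0.1× to 50×, was 0.660, 0.738, 0.881, 0.747 and 0.231 with Cy3 only, 0.690, 0.685, 0.876, 0.768 and 0.217 with the lowest feature subtracted, and 0.587, 0.623, 0.844, 0.734 and 0.184 with the 5th percentile subtracted. With Cy5 only it was 0.882 at 0.1× and 0.965 at 10×, and with the median of the spots 0.855 at 0.1× and 0.236 at 50×.

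The share at 5× over 0.1×, 1.61, was 1.81 with Cy3 only, 1.45 with Cy5 only, 2.36 with the lowest feature and 2.81 with the 5th percentile subtracted, 1.87 over all 384 features and 1.09 with median scaling. It was below 1 in 3 features, against 6 with the lowest feature and 7 with the 5th percentile subtracted and 28 with median scaling. The features with a rising share by limma, 64, were 2 with median scaling, 36 without the dimmest 25% and 0 with all 5 arrays (0 unadjusted), and the 1 with a falling share became 4 with median scaling, 0 with Cy5 only (1 unadjusted) and 0 with all 5 arrays (1 unadjusted). The slope fit with all 5 arrays includes the arrays whose ratio chose the set for a low share at the highest concentration. Its lack of rising features thus follows in part from the rule, and it cannot show how the slope depends on the processing. The prior degrees of freedom that limma estimated for the slope over 0.1× to 5× were 2.15 with the sum and without limit with median scaling. Features with Cy5 higher, 0 in limma, were 1 with median centring, 84 with no normalization and 1 with all 5 arrays. Those with Cy3 higher, 0, were 1 with median centring. Leaving out 1 array gave 0 to 3 with Cy5 higher and 0 to 1 with Cy3 higher, the 3 and the 1 without the 5× array. With no normalization Cy5 also stood above Cy3 in the other listed features, with medians of 1467 and 193 at 5×. Calls over the whole list are given above for the main tests and for the slope with median scaling. They were not counted for the other alternatives.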

Other observations

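Outside the list, 148 of 172 features (86.0%) had a ratio of 10× to 50× above 1.5 on the scale of the listed total, with a median of 4.01. The filter that made the list used the signal at 50×, so this follows from it in part. The place of the 84 features also differed by row. They were 52 of the 96 listed features (54.2%) in the even rows of the print and 32 of the 116 (27.6%) in the odd rows. These counts were made after the data were examined and were not tested.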
